A study of Homo sapiens with 7 samples.

Results

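The genes of sialic acid metabolism and the sialic acid-binding lectin SIGLEC15 were followed in HK-2 cells after transfection with siRNA against GLUT2. HK-2 is a line of human proximal tubule epithelium from the kidney that was made to grow without limit, and GLUT2, the product of SLC2A2, lets glucose pass through cell membranes. The set holds 30 of the 33694 genes in the table and was chosen by symbol. It consists of SIGLEC15, 5 genes of synthesis and transport, 20 sialyltransferases and 4 sialidases, of which 29 were found by the deposited symbol, and NEU1, whose row had no symbol, by its Ensembl identifier. SIGLEC15 is in the set because of its rise in this same contrast, so its values are given as a description with no test. The enzymes were taken as whole families, but the set was proposed with results of the contrast in view, so their counts describe these libraries and support no statement about the set.

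The 3 siGLUT2 libraries (replicates 2 to 4, labelled GLUT2-KD) came from HK-2 cells harvested 96 h after transfection with 50 nM siRNA against GLUT2. The 4 scrambled libraries (replicates 1 to 4, labelled WT) came from the same cell line transfected in the same way with a scrambled siRNA, so both groups carried siRNA and transfection reagent. The number of different siRNAs used against GLUT2 is not given in the sources used here. The comparison asks which transcripts differ between the groups. Each adjusted p comes from the quasi-likelihood test of edgeR, adjusted by Benjamini and Hochberg's method across the 12404 genes tested, and a gene was called below 0.05. Levels are library-scaled counts (CPM, scaled by the TMM method), differences are given as log2 of the ratio siGLUT2/scrambled ± SE, and group values are mean ± SD with n = 3 siGLUT2 and n = 4 scrambled libraries.

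Total counts ran from 5881366 to 6914302 in siGLUT2 libraries and from 5654957 to 8455963 in scrambled libraries. SLC2A2 itself was counted 0, 0 and 0 times in siGLUT2 libraries and 13, 13, 7 and 17 times in scrambled libraries. Mitochondrially encoded genes took 7.04% to 7.56% of counts in siGLUT2 libraries and 4.91% to 5.53% in scrambled libraries. Replicates differed by more than sampling noise. At mean counts of 10 to 50, the median variance between libraries was 8.68 times that of sampling alone in the siGLUT2 group and 4.29 times in the scrambled group, so values of weakly counted genes are uncertain. Of 13 proximal tubule markers, 4 were tested, 1 was called higher and 0 lower, and LRP2 and SLC22A6 were at 0 in every library and CUBN had 1 count in all, while PAX8 was at 176 ± 9.69 CPM in siGLUT2 and 192 ± 6.23 CPM in scrambled libraries. The called marker was GGT1, at 56.5 ± 5.06 CPM in siGLUT2 and 38.0 ± 4.88 CPM in scrambled libraries (0.57 ± 0.15, adjusted p = 0.0074). Of 6 epithelial markers, the keratins KRT7, KRT8, KRT18 and KRT19 were called lower in siGLUT2 libraries, and the summed level of the 6 was 635 to 767 CPM in siGLUT2 and 1128 to 1240 CPM in scrambled libraries. EPCAM, at 99.4 ± 23.8 CPM in siGLUT2 and 98.6 ± 6.80 CPM in scrambled libraries, did not pass (adjusted p = 0.965). The weakly counted CDH1 did not pass either (adjusted p = 0.118), with 7, 0 and 8 counts in siGLUT2 and 28, 25, 10 and 25 in scrambled libraries. Over all genes tested, 13.9% were called higher and 14.4% lower, and in 35.1% the libraries of the groups did not overlap. The part of these markers in the results below was not tested. In bulk RNA, fewer cells that express a gene and less of its RNA per cell cannot be told apart.

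Sialic acids are acidic sugars that cap the glycans of the cell surface, of secreted proteins and of lysosomal membranes. In human cells GNE starts their synthesis from UDP-GlcNAc, NANS and NANP complete the free sugar, CMAS activates it in the nucleus as CMP-sialic acid, and SLC35A1 carries that donor into the Golgi. Sialyltransferases there attach it to galactose, to N-acetylgalactosamine or to another sialic acid, and sialidases, above all NEU1 in the lysosome, take it off again. Siglecs are cell surface lectins that bind the finished sugar. SIGLEC15, known from osteoclasts, macrophages and tumour cells, binds the sialyl-Tn structure and signals through the adaptor TYROBP (DAP12).

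Among the 17 enzymes and transporters with enough counts to be tested, 2 were called higher and 1 lower in siGLUT2 libraries. NEU1, the lysosomal sialidase, and ST3GAL2, which adds sialic acid in alpha-2,3 linkage, rose. ST6GALNAC6, which adds it in alpha-2,6 linkage, fell. Over all genes tested, 13.9% were called higher, 14.4% lower and 28.3% in either direction. The median log2 fold change of these 17 was 0.14, beside -0.0029 for all genes tested. For 4 of the 17 the libraries of the groups stayed apart, namely NEU1, ST3GAL2, ST3GAL1 and ST6GALNAC6, where 35.1% of all genes tested had no overlap. The other 12 members had too few counts, 8 of them 0 in every library.

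**Figure D1:**
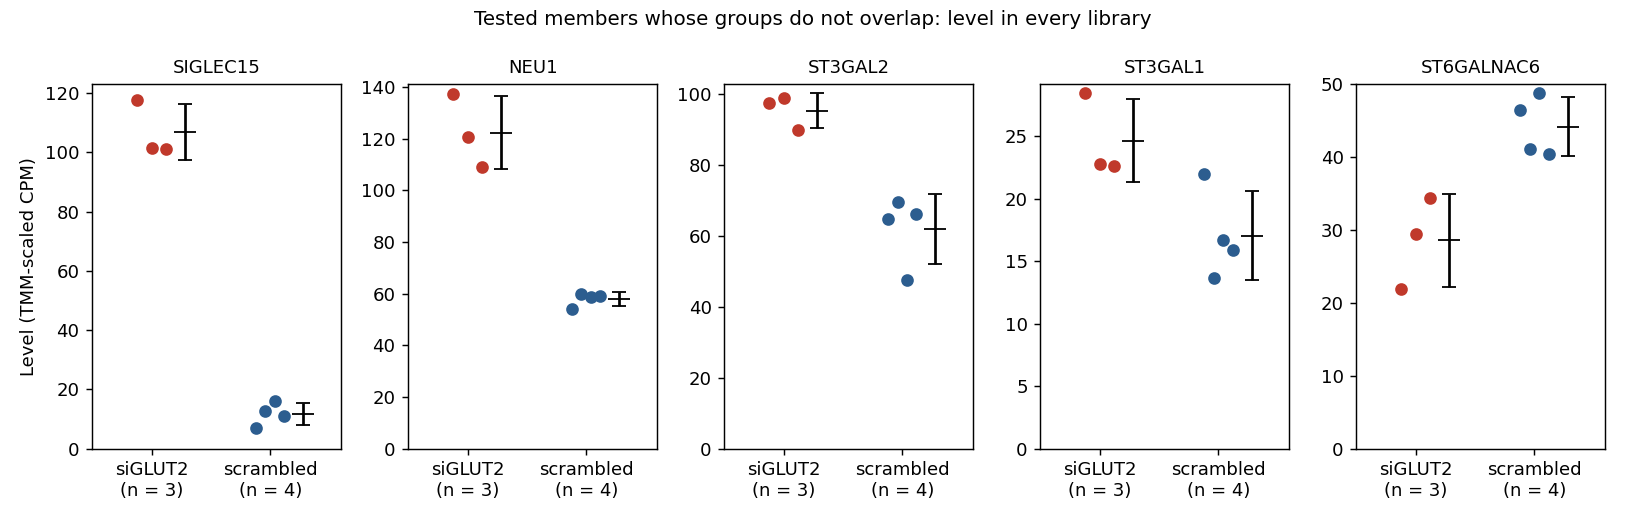
Level in TMM-scaled CPM (vertical axis, from 0) of the 5 members that passed the low-count filter and whose groups did not overlap. Each library is 1 point, in siGLUT2 (left, red) or scrambled (right, blue) cells, with the mean ± SD in black. SIGLEC15, chosen for its rise, stands at 101 to 118 CPM in siGLUT2 and 7.01 to 16.2 CPM in scrambled libraries. ST6GALNAC6 is the 1 gene of the 5 that lies lower in siGLUT2.

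SIGLEC15 (ENSG00000197046, GRCh38 chromosome 18, 45825512 to 45844080, plus strand) had 690, 705 and 647 counts in siGLUT2 libraries and 50, 106, 128 and 62 counts in scrambled libraries. Its level was 118, 102 and 101 CPM in siGLUT2 replicates 2, 3 and 4, against 7.01, 12.7, 16.2 and 10.9 CPM in scrambled replicates 1 to 4. The lowest siGLUT2 library lay far above the highest scrambled library. The group means were 107 ± 9.41 CPM in siGLUT2 and 11.7 ± 3.82 CPM in scrambled libraries, a log2 fold change of 3.18 ± 0.20, or 9.05-fold. By level it stood at ranks 1679 to 1990 of 12404 genes in siGLUT2 libraries and at ranks 7548 to 9598 in scrambled libraries. Its fold change was the 18th highest of all genes tested, and the 6th of the 10363 whose mean reached 5 CPM. SIGLEC15 was chosen for its rise, so these ranks are descriptions. Over all 18 alternative fits and omissions of a library its log2 fold change lay between 3.00 and 3.38.

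No other annotated gene overlaps SIGLEC15. Its nearest protein coding neighbours are SLC14A1, 72991 bases to the left and at 0 counts in every library, and EPG5, an autophagy gene on the opposite strand that ends 3528 bases to the right. EPG5 was at 20.4 ± 6.26 CPM in siGLUT2 and 16.7 ± 2.56 CPM in scrambled libraries (0.28 ± 0.25, adjusted p = 0.43). The promoter of SIGLEC15 is shown because the gene was chosen for its rise. It spans the RefSeq start (GRCh38.p14, chr18:45825425-45825724, plus strand), and capitals mark the only GC box (GGGCGG on either strand), whose first base lies 41 bases before the start.

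SIGLEC15 promoter: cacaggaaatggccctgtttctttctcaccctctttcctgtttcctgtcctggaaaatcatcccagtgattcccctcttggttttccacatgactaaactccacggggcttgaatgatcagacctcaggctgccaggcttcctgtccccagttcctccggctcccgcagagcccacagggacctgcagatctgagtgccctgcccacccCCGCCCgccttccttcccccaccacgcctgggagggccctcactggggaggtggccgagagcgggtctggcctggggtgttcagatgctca

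A GC box stood in 45.0% of all 35116 RefSeq promoters of the same length. The window of SIGLEC15 held no AP-1 site (TGANTCA, in 7.71% of all promoters), no E-box (CACGTG, in 7.26%) and no TATA box (TATAAA, in 11.5%), each searched on both strands. These are matches of letters and say nothing of which factors bind there.

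Of 15 other siglecs and adaptors that could be found, 2 passed the low-count filter and 0 were called by edgeR, beside 28.3% of all genes tested. At an unadjusted p below 0.05 the count was also 0, beside 4762 of the 12404 genes tested. CD22, a siglec of B cells, was at 6.40 ± 4.01 CPM in siGLUT2 and 5.76 ± 3.60 CPM in scrambled libraries, and MAG, a siglec of myelin, was at 2.58 ± 2.05 CPM in siGLUT2 and 3.10 ± 2.15 CPM in scrambled libraries. The adaptor TYROBP had 0, 0 and 0 counts in siGLUT2 libraries and 0, 0, 2 and 0 in scrambled libraries, and the related adaptor HCST had 0, 0 and 3 counts in siGLUT2 and 8, 3, 3 and 4 in scrambled libraries. A count of 0 over the siGLUT2 group allows a level of up to 0.156 CPM.

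Markers of myeloid cells and osteoclasts, in which SIGLEC15 is best known, were measured beside it. Of 12 myeloid markers, 5 were at 0 in every library, among them the leukocyte antigen PTPRC, and 1 was tested. That was FCER1G, an adaptor chain of Fc receptors, with 12, 26 and 24 counts in siGLUT2 libraries against 3, 0, 6 and 0 in scrambled libraries (3.31 ± 1.02, adjusted p = 0.0173). The summed level of the 12, FCER1G included, was 5.12 to 10.1 CPM in siGLUT2 and 1.20 to 3.35 CPM in scrambled libraries, where 35.1% of all genes tested had no overlap. CD14 had 5, 8 and 8 counts in siGLUT2 and 9, 2, 3 and 9 in scrambled libraries. CSF1R had 8, 1 and 8 counts in siGLUT2 and 5, 5, 4 and 8 in scrambled libraries. Of 10 osteoclast markers, 4 were tested, 2 were called higher and 0 lower, beside 13.9% and 14.4% of all genes tested. DCSTAMP and OCSTAMP were at 0 in every library. The summed level of the 10 was 124 to 163 CPM in siGLUT2 and 69.9 to 97.0 CPM in scrambled libraries, where 35.1% of all genes tested had no overlap. ITGB3 was the most counted of the 10, with 331, 336 and 475 counts in siGLUT2 and 260, 368, 329 and 310 in scrambled libraries. ACP5, the tartrate-resistant acid phosphatase, was higher in siGLUT2 libraries (29.4 ± 9.17 CPM, against 11.1 ± 1.70 CPM in scrambled libraries, 1.40 ± 0.25, adjusted p = 0.000156), as was the gelatinase MMP9 (38.7 ± 13.5 CPM, against 16.4 ± 5.12 CPM in scrambled libraries, 1.24 ± 0.25, adjusted p = 0.000761). ITGB3 and NFATC1 did not pass (adjusted p = 0.0605 for ITGB3 and 0.509 for NFATC1), and CALCR had 0, 0 and 0 counts in siGLUT2 and 3, 0, 10 and 2 in scrambled libraries. The part of these markers in the level of SIGLEC15 was not tested.

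**Figure D2:**
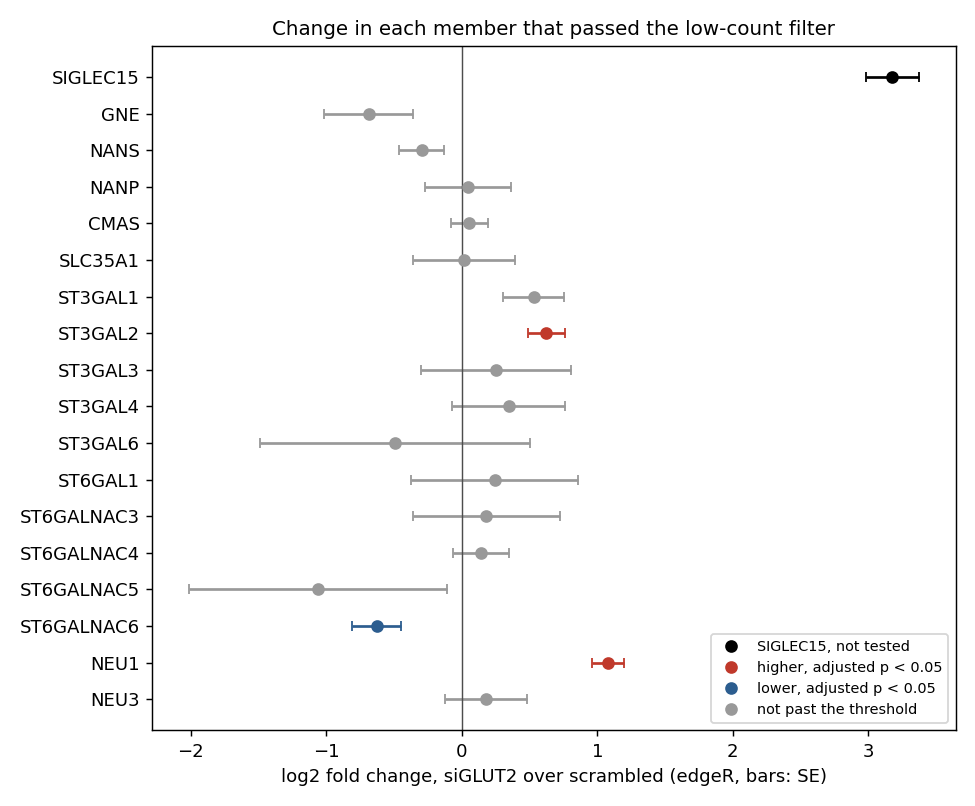
Log2 fold change of siGLUT2 over scrambled (horizontal axis, edgeR, bars are SE) for the 18 members that passed the low-count filter, ordered by role from SIGLEC15 at the top through synthesis and transfer to removal. SIGLEC15, chosen for its rise and not tested, lies at 3.18. Of the enzymes, NEU1 and ST3GAL2 (red) and ST6GALNAC6 (blue) passed the threshold.

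On the removal side, NEU1 (ENSG00000204386, GRCh38 chromosome 6, 31857659 to 31862906, minus strand), the lysosomal enzyme that cleaves sialic acid from glycoproteins, rose. It stood at 137, 121 and 109 CPM in siGLUT2 replicates 2 to 4, against 54.0, 60.0, 58.8 and 58.9 CPM in scrambled replicates 1 to 4. The scrambled libraries lay close together and every siGLUT2 library lay well above them. The means were 122 ± 14.1 CPM in siGLUT2 and 57.9 ± 2.69 CPM in scrambled libraries, with a log2 fold change of 1.08 ± 0.12 (2.11-fold, adjusted p = 5.82e-07). In all 18 alternatives NEU1 was called higher, with log2 fold changes from 0.99 to 1.15. NEU3, a sialidase of the plasma membrane that acts on gangliosides, was at 13.1, 10.4 and 10.5 CPM in siGLUT2 and 7.01, 9.35, 11.004 and 12.7 CPM in scrambled libraries. The groups of NEU3 overlapped and its log2 fold change of 0.18 ± 0.30 did not pass (adjusted p = 0.707). NEU2 had 0 counts in every library, and NEU4 had 0 counts in siGLUT2 and 4 in scrambled libraries.

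CTSA, the protective protein that binds and stabilises NEU1, was at 231 ± 9.99 CPM in siGLUT2 and 132 ± 15.4 CPM in scrambled libraries (0.80 ± 0.10, adjusted p = 3.16e-06). SLC17A5, or sialin, which exports freed sialic acid from the lysosome, was at 28.1 ± 7.35 CPM in siGLUT2 and 12.6 ± 1.07 CPM in scrambled libraries (1.15 ± 0.23, adjusted p = 0.000648). These were 2 of 9 tested genes in a list of sialic acid turnover and modification, in which 0 were called lower and the median log2 fold change was 0.19, where 13.9% of all genes tested were called higher and 14.4% lower. GLB1, the beta-galactosidase that shares a lysosomal complex with NEU1 and CTSA, was at 69.2 ± 4.42 CPM in siGLUT2 and 59.7 ± 3.41 CPM in scrambled libraries and did not pass (adjusted p = 0.237). Promoters of lysosomal genes are known to share elements built on an E-box. The windows of NEU1 (chr6:31862772-31863071, minus strand) and CTSA (chr20:45891085-45891384, plus strand) are printed because both genes were called higher, across the RefSeq start on GRCh38.p14, with E-boxes (CACGTG, which reads the same on both strands) in capitals.

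NEU1 promoter: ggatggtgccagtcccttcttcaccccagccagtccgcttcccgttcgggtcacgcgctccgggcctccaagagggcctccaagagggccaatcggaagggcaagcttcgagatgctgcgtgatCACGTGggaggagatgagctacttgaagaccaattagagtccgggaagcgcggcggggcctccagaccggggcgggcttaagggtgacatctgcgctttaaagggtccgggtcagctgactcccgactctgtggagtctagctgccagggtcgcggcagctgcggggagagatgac

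CTSA promoter: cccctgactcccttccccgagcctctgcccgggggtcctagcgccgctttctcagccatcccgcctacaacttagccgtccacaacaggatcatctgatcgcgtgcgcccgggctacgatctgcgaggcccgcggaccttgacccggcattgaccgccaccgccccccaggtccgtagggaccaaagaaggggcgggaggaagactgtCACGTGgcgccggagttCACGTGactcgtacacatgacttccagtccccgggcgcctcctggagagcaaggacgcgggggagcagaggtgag

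The E-box of NEU1 lies 126 bases before the start and those of CTSA 42 and 25 bases before it. An E-box stood in 7.26% of all promoters of this length, and not in the window of SLC17A5. The 23 members with a promoter had 40 promoters, since some had several. An E-box stood in 3 of these 40, in 1 promoter each of the members NEU1, ST3GAL4 and ST6GALNAC3. Of the 3 members, ST3GAL4 and ST6GALNAC3 did not pass the test. Surrounding genes with an E-box included B4GALT2 and LAMP1, the latter with 6 of them, and both were called higher. Others were CD164, which was called lower, and AMDHD2 and NPL, which did not pass. The letters alone show no binding.

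Of the 20 sialyltransferases, 10 were tested, 1 was called higher and 1 lower (13.9% and 14.4% of all genes tested), with a median log2 fold change of 0.21, and 7 had 0 counts in every library. ST3GAL2 (ENSG00000157350, GRCh38 chromosome 16, 70375978 to 70439237, minus strand), which sialylates O-glycans and gangliosides ending in galactose, was at 97.4, 99.0 and 89.8 CPM in siGLUT2 replicates 2 to 4, against 64.9, 69.6, 47.4 and 66.1 CPM in scrambled replicates 1 to 4. Its groups did not overlap, and the log2 fold change was 0.62 ± 0.14 (1.54-fold, adjusted p = 0.00141). ST3GAL1 (ENSG00000008513, chromosome 8, 133454848 to 133571940), which caps core 1 O-glycans, was at 28.5, 22.8 and 22.7 CPM in siGLUT2 and 22.0, 13.7, 16.7 and 15.9 CPM in scrambled libraries. Scrambled replicate 1 came close to the siGLUT2 libraries, and the log2 fold change of 0.53 ± 0.22 did not pass (adjusted p = 0.0839). Without that library ST3GAL1 had a log2 fold change of 0.68 with an adjusted p of 0.0485, and with all libraries thinned to the smallest total the adjusted p was 0.0468.

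The other ST3GAL enzymes were weakly counted. ST3GAL4, which acts on N-glycans and O-glycans, was at 7.504, 10.2 and 3.596 CPM in siGLUT2 and 4.204, 6.84, 6.83 and 4.41 CPM in scrambled libraries, and the groups overlapped. ST3GAL3, of the same linkage, averaged 4.13 ± 1.33 CPM in siGLUT2 and 3.47 ± 1.71 CPM in scrambled libraries. ST3GAL6 averaged 1.01 ± 1.02 CPM in siGLUT2 and 1.45 ± 0.50 CPM in scrambled libraries. It overlaps the abundant gene DCBLD2 on the opposite strand, from which its reads cannot be told apart without a known strand setting. The adjusted p was 0.584 for ST3GAL4, 0.782 for ST3GAL3 and 0.761 for ST3GAL6. ST3GAL5, the synthase of the ganglioside GM3, had 7, 2 and 10 counts in siGLUT2 libraries and 0, 0, 1 and 0 in scrambled libraries. It did not pass the low-count filter. The ratio of its pooled levels was 28.8 with an exact 95% interval of 4.57 to 1195 that covers counting error only, and without a filter its adjusted p was 0.142.

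In the ST6GALNAC family, ST6GALNAC6 (ENSG00000160408, GRCh38 chromosome 9, 127885321 to 127905408, minus strand), which makes alpha-series gangliosides and disialyl Lewis structures, fell. It was at 21.8, 29.4 and 34.4 CPM in siGLUT2 replicates 2 to 4, against 46.4, 41.1, 48.7 and 40.4 CPM in scrambled replicates 1 to 4. All siGLUT2 libraries were below all scrambled libraries, and the log2 fold change was -0.63 ± 0.18 (adjusted p = 0.0114). It stayed called in all 18 refits at 0.05, with adjusted p from 0.00278 to 0.0454, but the call is lost at a threshold of 0.01. It overlaps AL157935.2 on the same strand, with which it could share reads. ST6GALNAC4, which lies 2477 bases away on the same strand and makes disialyl core 1 O-glycans, was at 22.5, 37.5 and 48.5 CPM in siGLUT2 and 37.1, 29.7, 34.2 and 30.2 CPM in scrambled libraries. The siGLUT2 libraries of ST6GALNAC4 lay on both sides of the scrambled ones (0.14 ± 0.21, adjusted p = 0.664). ST6GALNAC3 averaged 4.69 ± 3.33 CPM in siGLUT2 and 4.14 ± 1.36 CPM in scrambled libraries (adjusted p = 0.843). ST6GALNAC5 had 22, 3 and 0 counts in siGLUT2 and 34, 20, 28 and 4 in scrambled libraries (-1.06 ± 0.95, adjusted p = 0.448), and without siGLUT2 replicate 2 its log2 fold change was -3.59 with an adjusted p of 0.026. ST6GALNAC1, which makes the sialyl-Tn structure that SIGLEC15 binds, and ST6GALNAC2 had 0 counts in all 7 libraries, which allows up to 0.0621 CPM over all of them.

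The enzymes that extend N-glycans in alpha-2,6 linkage and those that build sialic acid chains were low or not seen. ST6GAL1, the main N-glycan alpha-2,6-sialyltransferase, was at 11.4, 10.8 and 0.469 CPM in siGLUT2 and 2.52, 8.04, 4.05 and 11.1 CPM in scrambled libraries. The siGLUT2 libraries of ST6GAL1 disagreed among themselves, with 67, 75 and 3 counts, and the change of 0.24 ± 0.62 did not pass (adjusted p = 0.811). ST6GAL2 was at 0 in every library. In the ST8SIA family, ST8SIA1, the GD3 synthase, had 8, 12 and 0 counts in siGLUT2 and 1, 0, 8 and 3 in scrambled libraries. ST8SIA4, a polysialyltransferase, had 1 count in all, and ST8SIA2, ST8SIA3, ST8SIA5 and ST8SIA6 had 0 in every library.

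**Figure D3:**
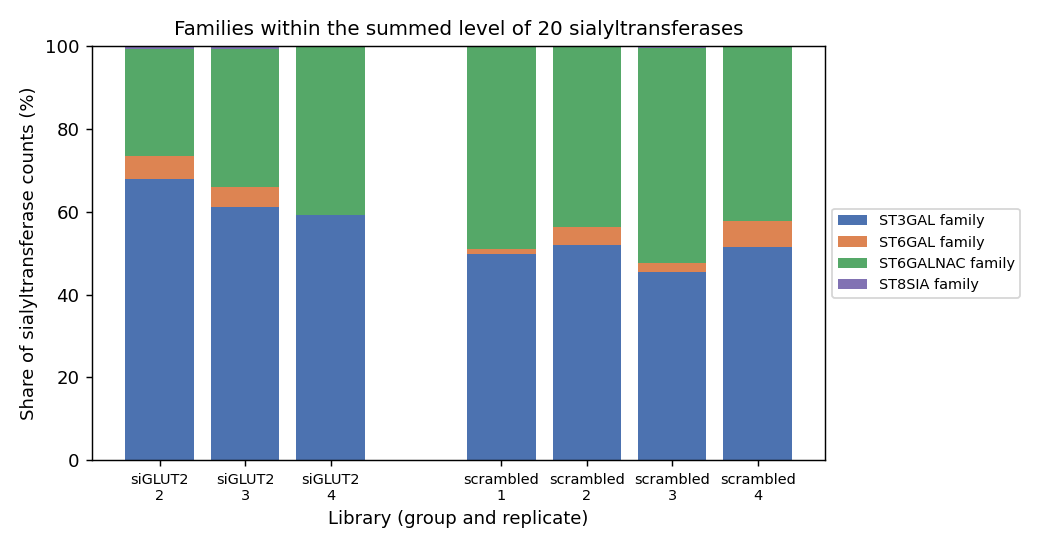
Share of the summed sialyltransferase level (vertical axis, percent of TMM-scaled counts, not divided by gene length) that each of the 4 families took in every library, with siGLUT2 on the left and scrambled on the right. The ST3GAL part spans 59.1% to 67.9% in siGLUT2 and 45.4% to 51.9% in scrambled libraries.

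Summed over the 20 sialyltransferases, the level was 204 to 227 CPM in siGLUT2 and 173 to 189 CPM in scrambled libraries. ST3GAL enzymes took 62.7% ± 4.61 of it in siGLUT2 and 49.6% ± 2.96 in scrambled libraries. ST6GALNAC enzymes took 33.2% ± 7.43 in siGLUT2 and 46.5% ± 4.49 in scrambled libraries. The libraries of the groups did not overlap in the share of either family, where 35.1% of all genes tested had no overlap in level. In summed level they did not overlap for the ST3GAL family, at 122 to 139 CPM in siGLUT2 and 78.7 to 94.4 CPM in scrambled libraries, but they did for the ST6GALNAC family, at 52.7 to 84.3 CPM in siGLUT2 and 74.6 to 92.2 CPM in scrambled libraries. The sum against which the shares are taken holds both families. ST3GAL2 alone took 44.9% in siGLUT2 and 34.3% in scrambled libraries, ST6GALNAC6 took 13.4% in siGLUT2 and 24.5% in scrambled libraries, and ST6GALNAC4 took 17.0% in siGLUT2 and 18.2% in scrambled libraries. Since the set was chosen with this contrast in view, these values carry no test.

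In synthesis and transport, 0 of 5 genes were called by edgeR, and 1 had an unadjusted p below 0.05. Of the 12404 genes tested, 28.3% were called and 4762 had an unadjusted p below 0.05. GNE (ENSG00000159921, GRCh38 chromosome 9, 36214441 to 36277056, minus strand), the rate-limiting enzyme, was at 5.29, 8.21 and 12.2 CPM in siGLUT2 and 18.9, 11.03, 10.4 and 15.2 CPM in scrambled libraries. Only siGLUT2 replicate 4 reached into the scrambled range, and the log2 fold change was -0.69 ± 0.33 (adjusted p = 0.126). Without that library GNE had a log2 fold change of -1.03 with an adjusted p of 0.0286. GNE overlaps CLTA, the clathrin light chain gene, on the opposite strand, which was higher in siGLUT2 libraries (0.34 ± 0.09, adjusted p = 0.00523). NANS, the sialic acid synthase, was at 34.6, 56.1 and 42.5 CPM in siGLUT2 and 62.6, 53.4, 52.9 and 49.4 CPM in scrambled libraries. Its change of -0.30 ± 0.17 did not pass (adjusted p = 0.203), while without siGLUT2 replicate 3, the highest of its group, it was -0.50 with an adjusted p of 0.0401. NANS overlaps TRIM14 on the opposite strand, which was lower in siGLUT2 libraries (-0.72 ± 0.17, adjusted p = 0.00289).

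The later steps showed overlapping groups. NANP, the phosphatase that releases free sialic acid, was at 15.5, 6.77 and 15.3 CPM in siGLUT2 and 14.996, 13.3, 11.9 and 8.11 CPM in scrambled libraries. CMAS was at 78.5, 60.8 and 64.1 CPM in siGLUT2 and 58.4, 65.001, 68.8 and 68.3 CPM in scrambled libraries. The transporter SLC35A1 was at 4.95, 9.80 and 7.97 CPM in siGLUT2 and 4.62, 7.32, 7.97 and 10.2 CPM in scrambled libraries. Their log2 fold changes were 0.04 ± 0.32 for NANP, 0.06 ± 0.14 for CMAS and 0.02 ± 0.37 for SLC35A1, and none of the 3 passed (adjusted p 0.938 for NANP, 0.799 for CMAS and 0.98 for SLC35A1). The sum of the 5 genes was 139 to 142 CPM in siGLUT2 and 150.0 to 160 CPM in scrambled libraries, where 35.1% of all genes tested had no overlap. Of the 5, only GNE and NANS had a lower mean in siGLUT2 libraries, and neither passed.

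Beyond the members, 57 genes of 6 surrounding lists were tested, of which 26 were called higher and 3 lower in siGLUT2 libraries, where 13.9% of all genes tested were called higher and 14.4% lower. Their median log2 fold change was 0.30, beside -0.0029 for all genes tested. The lists were chosen with earlier results of these data known, so these counts are descriptions. The count of lower genes was 1, MUC1, without scrambled replicate 1, without scrambled replicate 4, with the replicate block and with group quality weights. Genes that supply UDP-GlcNAc, the starting sugar, were higher in 4 of 4 tested, PGM3 (0.86 ± 0.11), UAP1 (0.73 ± 0.19), GNPNAT1 (0.48 ± 0.13) and GFPT1 (0.39 ± 0.10). Among 20 tested enzymes that build the glycans on which sialic acid is placed, 9 were higher and 1 lower. GALNT1, which starts O-glycans, was at 137 ± 4.07 CPM in siGLUT2 and 81.6 ± 3.99 CPM in scrambled libraries (adjusted p = 1.41e-05), and GALNT2, of the same function, averaged 233 CPM in siGLUT2 and 134 CPM in scrambled libraries (0.80 ± 0.11, adjusted p = 1.49e-05). GCNT3, which branches O-glycans, had the log2 fold change 1.63 ± 0.24, and MGAT4B, which branches N-glycans, had 0.68 ± 0.10. B4GALT1, a galactosyltransferase that prepares N-glycans for sialylation, was the 1 lower gene (-0.27 ± 0.10, adjusted p = 0.0478). B4GALT1 was called in 7 of 18 refits, with adjusted p from 0.0359 to 0.147.

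Gangliosides are sialylated glycolipids. Of 12 tested genes of their core, 6 were called higher and 0 lower, beside 13.9% and 14.4% of all genes tested. UGCG, which makes the first glycolipid of the series, was at 1243 ± 88.3 CPM in siGLUT2 and 883 ± 9.30 CPM in scrambled libraries (0.49 ± 0.07, adjusted p = 2.23e-05). B4GALNT1, the GM2 synthase, had a log2 fold change of 1.11 ± 0.26, and GBA2, a glucosylceramidase, had 1.25 ± 0.33. Among 10 tested proteins known to carry sialic acid, 5 were called higher and 2 lower, beside the same shares of all genes tested. The hyaluronan receptor CD44 was at 231 ± 7.80 CPM in siGLUT2 and 107 ± 12.6 CPM in scrambled libraries (1.11 ± 0.10, adjusted p = 5.49e-08). NRP2 and CADM1, which can carry polysialic acid in other cells, had log2 fold changes of 1.29 ± 0.13 and 1.10 ± 0.12. The sialomucin MUC1 was lower, at 2.17 ± 1.52 CPM in siGLUT2 and 9.37 ± 1.66 CPM in scrambled libraries (-2.12 ± 0.48, adjusted p = 0.00187).

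**Figure D4:**
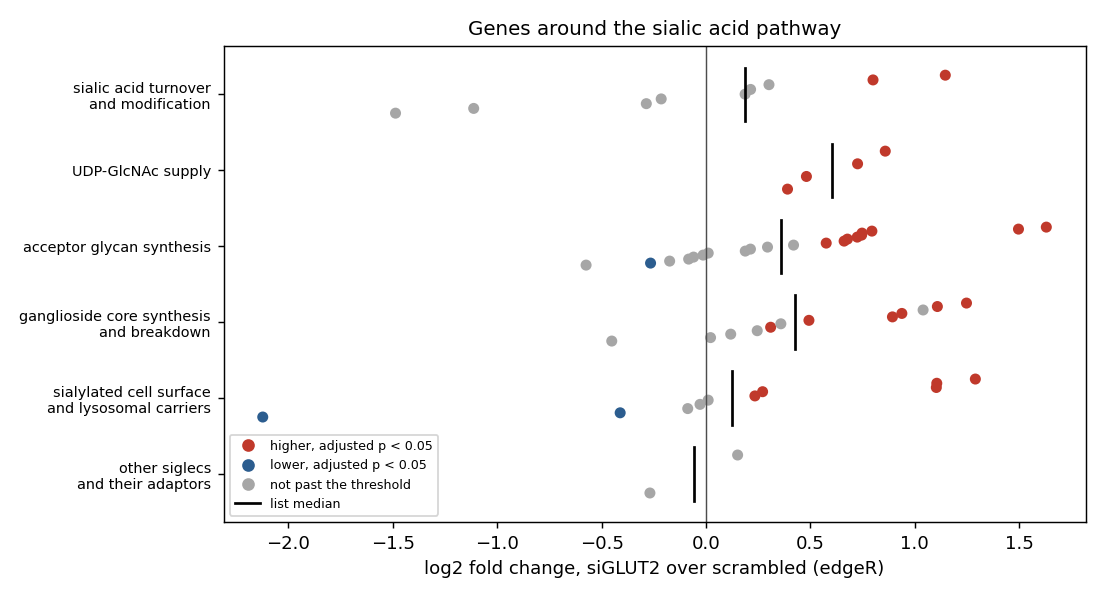
Log2 fold change of siGLUT2 over scrambled (horizontal axis, edgeR) for each tested gene of 6 lists around the pathway, with 1 point per gene, called genes in red (higher) or blue (lower) and the list median as a black bar. The 4 tested genes of UDP-GlcNAc supply all lie above 0, and MUC1 lies farthest to the left at -2.12.

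The annotated 3' UTRs of the members were searched for GACCTTA and ACCTTAA, a pair of 7-base words that an earlier scan of these same fold changes had picked. Either word stood in the longest annotated 3' UTR (GENCODE release 29) of 3 of the 18 members that passed the low-count filter. A word stood in 1671 (16.5%) of 10101 genes whose mean reached 5 CPM. The 3 members are ST3GAL2, which rose, ST6GALNAC6, which fell, and ST3GAL3, which did not pass, and SIGLEC15 and NEU1 held neither word. The 16.5% covers only genes at 5 CPM or more, while 4 of the tested enzymes lay under that level, ST3GAL3 among them. A word also stood in 9 of 57 tested surrounding genes, and in 1 of the 29 that were called. The sites in the called members are printed with the word in capitals, as the sense strand of the transcript from chromosome 16 for ST3GAL2 and chromosome 9 for ST6GALNAC6.

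ST3GAL2 site: gaaataaataaACCTTAActaa

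ST6GALNAC6 site: aacgggacaaaACCTTAAgctgttttctt

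The words are no separate support for either direction, and their part in these changes was not tested.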

How the data were processed

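Sequencing libraries were made from 125 ng of total RNA by a digital mRNA-seq service and read single-end for 100 cycles, per the labels' protocols. The authors deposited raw counts per Ensembl gene for 7 libraries. The submitters' processing notes name STAR, HTSeq, edgeR and hg38. Tool versions, annotation, strand and molecular identifiers: not given in the sources used here. The table had 33694 rows, 16136 of them 0 in every library and 0 that were not genes. No value column was left out. Counts of overlapping genes can be mixed where strand is unknown, and reads without molecular identifiers are not independent, so intervals and floors (3 counts) cover counting error only.

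Groups came from sample titles. All 7 libraries entered edgeR 4.0.16 (R 4.3.3) with TMM scaling, genes kept by filterByExpr at a minimum count of 10 and a total of 15, robust dispersion and glmQLFTest without covariates, and the SE is the fold change divided by the root of F. The labels call the replicates biological, of 1 cell line, and their p-values speak only of the spread among these 7, which may be technical. No 2 libraries of a group agreed within sampling noise (median variance at least 4.37 times that of sampling). The fits were also run on simulated counts with the same dispersion in both groups. These data differ, since siGLUT2 libraries were more spread than scrambled ones, so no conclusion is drawn from that run. Alternatives were DESeq2 1.42.0, limma-voom 3.58.1, scalings, filters, thinning, a replicate block and omission of each library. Members and lists were chosen with earlier results of these data known. Named genes were all members, with values in every library for those called or at 5 CPM or more, and up to 4 called genes per list by adjusted p (2 by level where fewer than 2 passed), of which 1 is not reported here. Positions are from GENCODE 29 (GRCh38) and promoters from RefSeq (GRCh38.p14), found for 23 of 30 members. The promoter motifs, the osteoclast and myeloid genes named, the epithelial genes, PAX8, GGT1, TYROBP, HCST, GLB1 and B4GALT1 were picked for the text outside that rule, after values were seen.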

Additional observations from a re-analysis of the deposited data

Results flagged for a closer look

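ST3GAL6 in scrambled replicate 1 was at 0.701 CPM, apart from 1.64, 1.68 and 1.76 CPM in the other scrambled libraries. The gap took 0.888 of the range of the group, above the 95% critical value for 4 samples. The level rests on 5 counts against 14, 13 and 10 in scrambled replicates 2 to 4, and chance alone flags about 1 in 20 such groups, of which 19 were examined.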

How the results depend on the processing

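SIGLEC15 kept its direction, and NEU1, ST3GAL2 and ST6GALNAC6 kept their direction and call, in all 18 refits. Of 304 refitted values of the enzymes, 299 kept their side of the threshold and 5 passed it anew, as given for ST3GAL1, GNE, NANS and ST6GALNAC5. ST3GAL6 was not tested in 2 refits. The sign of the change turned in at least 1 refit, without a call, for NANP, CMAS, SLC35A1, ST3GAL3, ST3GAL4, ST3GAL6, ST6GAL1, ST6GALNAC3 and ST6GALNAC4. At an adjusted p below 0.01, 0 enzymes were lower (ST6GALNAC6 was lost), and 2264 of all genes were called in place of 3509. Leaving out 1 library gave 1 to 2 enzymes lower, 2 without any 1 of the siGLUT2 libraries, and 1 to 2 surrounding genes lower. The surrounding genes called lower were 1 in place of 3 with group quality weights, with the replicate block and at 0.01. Same-numbered libraries did not deviate together (correlations 0.00972, 0.0154 and -0.00828 for numbers 2, 3 and 4, and siGLUT2 replicate 4 was closer to scrambled replicate 2). Under the replicate block 2649 of all genes were called, 2 enzymes were higher and 1 lower. The 12 members not tested had too few counts, and the SE of the 4 tested enzymes under 5 CPM ran from 0.54 to 1.00.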
